A study of Mus musculus with 4 samples.

Results

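The troponin genes of the heart were examined in nuclei of neonatal mouse cardiomyocytes, and 4 genes were chosen by name: Tnnt2, Tnni1, Tnni3 and Tnnc1, which are 4 of the 22574 genes in the count matrix. The rule itself used no measured value, although it was written with earlier results of these data known, and all 4 had enough counts for every comparison below. The matrix held 8585 nuclei from 4 single-nucleus RNA sequencing libraries, made from mice with loxP sites around the gene for the transcription factor Nrf1, in the C57BL/6 background. Mice labelled KO (Nrf1fl/fl:aMHC-Cre) also carried a Cre recombinase that the cardiomyocyte promoter of alpha myosin heavy chain drives, and mice labelled WT (Nrf1fl/fl) did not. Pups had myocardial infarction (MI, by tying off the left anterior descending artery of the heart) or a Sham operation on postnatal day 3. The heart below the level of the ligature was taken 1 day later, at postnatal day 4, and pooled from 4 to 6 hearts, so that each of the groups Sham-WT, MI-WT, Sham-KO and MI-KO was 1 library with no replicate.

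Troponin is the calcium switch of the sarcomere. It sits on the thin filament with tropomyosin and has a subunit that anchors it to tropomyosin (troponin T), a subunit that inhibits the actin-myosin interaction (troponin I) and a subunit that binds calcium (troponin C). Tnnt2 encodes cardiac troponin T, Tnnc1 encodes the troponin C of heart and slow muscle, Tnni1 encodes the slow skeletal troponin I that the fetal heart uses, and Tnni3 encodes cardiac troponin I. Around birth the heart replaces the product of Tnni1 with that of Tnni3, so the ratio of their RNA is a common readout of cardiomyocyte maturation.

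Unique molecular identifiers (UMIs), each standing for a captured RNA molecule, were added up for each library, and for each population within it, and are given as CPM, the counts in 1000000 UMIs. With a single library in each group the spread within a group is unknown and no test was made, and every range in parentheses is a 95% interval that covers counting error only. Libraries summed to between 4984625 UMIs (Sham-WT) and 9106522 UMIs (Sham-KO), and Sham-KO stood apart with a median of 2572 UMIs per nucleus and 8.98% of UMIs from the mitochondrial genome, against 3553.5 to 3959 UMIs and 5.29% to 6.58% in the others. Of the barcode sequences, 9 occurred in a pair of libraries each. Nfe2l1, the gene for Nrf1, was lower in the library labelled Sham-KO than in Sham-WT (50.5 against 62.2 CPM) but higher in the library labelled MI-KO than in MI-WT (55.3 against 47.4 CPM), which goes against that label, so each name below means the library so labelled. The MI difference lay in CM1 (57.7 against 44.1 CPM), whereas in CM4 and CM2 Nfe2l1 was lower in MI-KO (32.0 against 61.7 and 31.0 against 54.4 CPM), from 9 to 26 UMIs and with intervals that included 0. Which stretch of Nfe2l1 was deleted is not given in the sources used here, and tags outside it would remain. The authors chose cardiomyocyte clusters by Tnnt2, so its presence is no finding, and all 8 cardiomyocyte markers were detected in every library.

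The genes lie at 3 places in the genome (GRCm38, GENCODE M21). Tnni1 spans chr1:135779434-135810989 and Tnnt2 spans chr1:135836354-135852260, both on the plus strand, with 25364 bases between them and the gene Lad1 in that gap. Tnni3 spans chr7:4518305-4524229 on the minus strand and overlaps Dnaaf3 on the same strand. Tnnc1 spans chr14:31208312-31211729 on the plus strand, inside Nisch on the opposite strand. Dnaaf3 had at most 4 UMIs in a library, against 7094 or more of Tnni3, whereas Nisch stood at 219 to 333 CPM, and because the use of strand in the counting is not stated, reads of Nisch and Tnnc1 could be mixed where they overlap.

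The promoters are shown because Tnni1 and Tnnt2 are neighbours whose levels varied alike across the sums below, while Tnnc1 differed from them. Each line gives the 250 bases before the first base of the transcript in RefSeq (GRCm38.p6), 5′ to 3′ on the strand of the gene. For Tnni1 and for Tnni3 this start lies inside the longer GENCODE gene. The windows lie at chr1:135836084-135836333 (plus) for Tnnt2, chr1:135799171-135799420 (plus) for Tnni1, chr7:4522529-4522778 (minus) for Tnni3 and chr14:31208062-31208311 (plus) for Tnnc1. Capitals mark matches on either strand to the letters GATA, bound by GATA factors, or CATTCC, the M-CAT element bound by TEAD factors.
Tnnt2 promoter: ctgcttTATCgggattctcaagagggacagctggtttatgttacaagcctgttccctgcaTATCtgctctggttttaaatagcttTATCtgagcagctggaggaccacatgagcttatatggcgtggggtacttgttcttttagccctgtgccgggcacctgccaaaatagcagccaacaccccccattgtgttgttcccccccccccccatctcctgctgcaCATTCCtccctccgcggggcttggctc
Tnni1 promoter: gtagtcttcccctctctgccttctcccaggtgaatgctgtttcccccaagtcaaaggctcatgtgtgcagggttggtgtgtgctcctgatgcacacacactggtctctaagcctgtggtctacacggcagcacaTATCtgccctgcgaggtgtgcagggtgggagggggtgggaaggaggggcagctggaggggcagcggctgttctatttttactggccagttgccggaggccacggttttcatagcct
Tnni3 promoter: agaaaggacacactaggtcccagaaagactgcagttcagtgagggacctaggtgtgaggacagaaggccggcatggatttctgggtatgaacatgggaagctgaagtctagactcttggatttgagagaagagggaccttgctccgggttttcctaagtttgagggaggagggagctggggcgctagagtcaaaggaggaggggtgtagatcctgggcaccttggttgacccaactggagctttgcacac
Tnnc1 promoter: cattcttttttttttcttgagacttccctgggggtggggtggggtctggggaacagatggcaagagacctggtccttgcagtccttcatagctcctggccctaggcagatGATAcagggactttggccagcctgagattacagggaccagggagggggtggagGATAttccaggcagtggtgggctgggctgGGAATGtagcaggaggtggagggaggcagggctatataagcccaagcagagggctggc
GATA was found 3 times for Tnnt2, 1 time for Tnni1 and 2 times for Tnnc1, and not in the Tnni3 window. CATTCC was found for Tnnt2, at -27 to -22 from its start, and for Tnnc1 on the minus strand. Of all 32851 promoter windows of this length, 53.6% held GATA and 12.6% held CATTCC. None of the 4 windows held the antioxidant response element TGACNNNGC, to which Nrf1 binds with its partners, and 10.2% of all windows did. TATAAA (12.4% of windows), the AP-1 site TGANTCA (6.75%), the MEF2 site (2.92%) and the CArG box (1.47%) were also in none of them, and the E-box CANNTG, found in 66.2% of windows, was in all of them and is not capitalised. The overlap of these letters with any other motif was not examined, and a match describes the letters alone.

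Levels were first compared over all nuclei of each library. Tnnt2 stood at 4457 CPM in Sham-WT, 2875 in MI-WT, 5041 in Sham-KO and 3328 in MI-KO. Tnni1 stood at 1063, 576, 1325 and 773 CPM in the same order. Both genes were therefore lower in each MI library than in either Sham library, with the order Sham-KO, Sham-WT, MI-KO and MI-WT. Tnni3 stood at 1423 CPM in Sham-WT, 931 in MI-WT, 2269.7 in Sham-KO and 1132 in MI-KO, which is the same order with a wider gap between Sham-KO and Sham-WT. Tnnc1 stood at 2108, 2075, 2746 and 2553 CPM, so that it ordered the libraries by genotype label before surgery, with Sham-KO above MI-KO, and Sham-WT (2068 to 2148) and MI-WT (2044 to 2107) within each other's counting error. Every other pair of neighbouring libraries in these orders had counting intervals that did not overlap. Together the 4 genes made up 0.905% of UMIs in Sham-WT, 0.646% in MI-WT, 1.14% in Sham-KO and 0.779% in MI-KO. No level over all nuclei rested on a few of them, since the 10 nuclei with most UMIs of a gene held between 1.01% and 4.10% of its total.

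**Figure D1:**
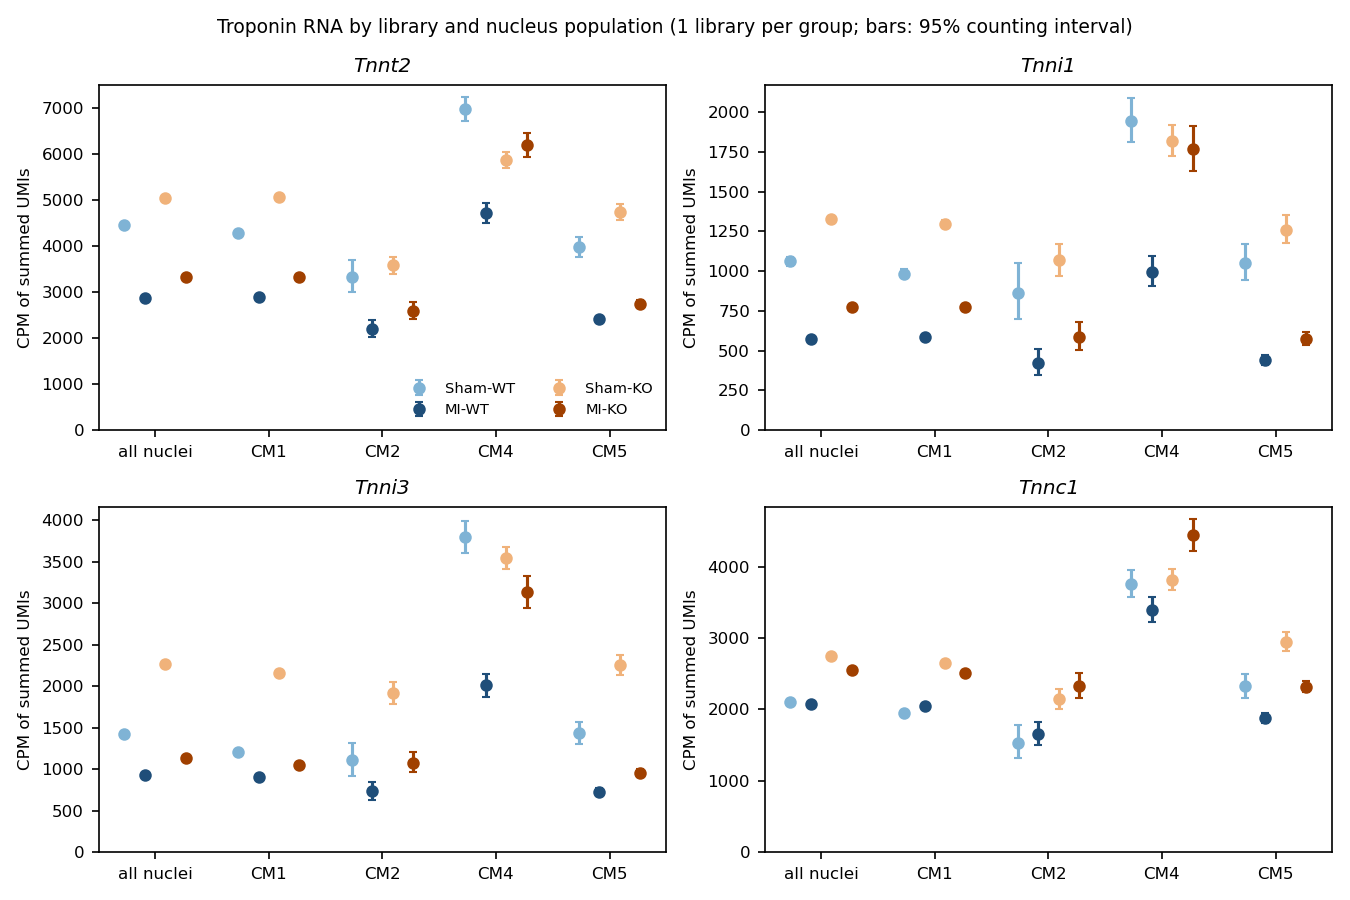
CPM of summed UMIs (vertical axes, from 0) of the 4 troponin genes in each of the 4 libraries, over all nuclei and in the populations CM1, CM2, CM4 and CM5; points are libraries and bars 95% counting intervals. Over all nuclei Tnnt2, Tnni1 and Tnni3 are lower in both MI libraries than in both Sham libraries, CM4 is the highest population for each gene, and in CM4 only the library MI-WT is low for Tnnt2, Tnni1 and Tnni3.

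The surgeries were compared for each genotype label, to ask how troponin RNA differed 1 day after injury. For the WT labels the log2 ratio was -0.88 (-0.94 to -0.83) for Tnni1, -0.63 (-0.66 to -0.61) for Tnnt2 and -0.61 (-0.66 to -0.56) for Tnni3, so that 3 of 4 genes were lower by more than 1.5-fold. Of 11358 genes with 50 or more UMIs in this comparison, 23.8% were past 1.5-fold in either direction and 13.7% were lower, and the median over these genes was -0.06. Tnnc1, the calcium-binding subunit, stood at -0.02 (-0.06 to 0.01), a difference within counting error over all nuclei together. For the KO labels the ratio was -1.003 (-1.04 to -0.97) for Tnni3, -0.78 (-0.82 to -0.73) for Tnni1 and -0.60 (-0.62 to -0.58) for Tnnt2, again 3 of 4 genes past 1.5-fold and lower, beside 22.5% of 11857 genes in either direction and 10.8% lower. Tnnc1 was lower by a small margin, at -0.11 (-0.13 to -0.08). For WT, Tnnt2 and Tnni3 lay close to the 1.5-fold line, and under the scaling of edgeR (TMM) or DESeq2 only Tnni1 passed it. Other RNA moved with MI as well. The 11 myeloid markers, all detected, summed to 130 CPM in Sham-WT and 558 in MI-WT, and to 98.3 in Sham-KO and 285 in MI-KO. Malat1, a long RNA kept in the nucleus and chosen after its values were seen, had a log2 ratio of 0.41 in WT and 0.44 in KO. Their part in the troponin differences was not tested.

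The share of UMIs from the mitochondrial genome differed between the libraries and moved with the troponins, since nuclei with 10 to 20% had higher CPM of all 4 genes than nuclei with 0 to 4% in every library. In Sham-WT, for example, Tnni3 went from 975 CPM in nuclei with 0 to 4% of UMIs from the mitochondrial genome to 2643 CPM in nuclei with 10 to 20%. Of the 299 Sham-WT nuclei with 10 to 20%, 176 were CM4, and in CM1 alone Tnni3 went from 958 to 1649 CPM. In CM1 of MI-WT Tnnt2 went the other way, from 2826 to 2712 CPM. Libraries were therefore also compared within 5 ranges of this percent. Tnnt2, Tnni1 and Tnni3 were lower after MI in 5 of 5 ranges for both genotype labels, with log2 ratios for WT between -0.77 and -0.50 for Tnnt2, -1.08 and -0.70 for Tnni1, and -0.97 and -0.32 for Tnni3. For KO they ran between -0.58 and -0.30 for Tnnt2, -0.59 and -0.40 for Tnni1, and -0.79 and -0.49 for Tnni3, so each was nearer 0 than over all nuclei together. Tnnc1 in KO turned from below 0 over all nuclei to between 0.05 and 0.36 within the ranges, with 3 of 5 intervals above 0. In WT the value near 0 over all nuclei mixed opposite differences, from 0.16 (0.07 to 0.25) in nuclei with 0 to 4% to -0.25 (-0.34 to -0.16) in nuclei with 10 to 20%, with 3 intervals above 0 and 1 below. CM4 made up 116 of 260 nuclei with 10 to 20% in MI-WT, beside 176 of 299 in Sham-WT. In CM1 alone the WT values of Tnnc1 lay between -0.08 and 0.20, with 3 intervals above 0 and 0 below. The range of 0 to 4% held only 39 nuclei of Sham-KO.

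Expression was then compared between the genotype labels within each surgery, to see how the libraries with and without Cre differed. After Sham surgery Tnni3 was higher in the library labelled KO, at a log2 ratio of 0.67 (0.63 to 0.71), and was the 1 gene of 4 past 1.5-fold, beside 7.03% of 11478 genes in either direction and 3.96% higher. Tnnc1 stood at 0.38 (0.35 to 0.41), Tnni1 at 0.32 (0.27 to 0.37) and Tnnt2 at 0.18 (0.15 to 0.20), all above the median over all genes of -0.09. After MI all 4 genes were higher in the library labelled KO by smaller margins, between 0.21 (0.19 to 0.24) for Tnnt2 and 0.42 (0.37 to 0.48) for Tnni1, and 0 of 4 passed 1.5-fold, where 3.62% of 11700 genes did. Over all nuclei with 0 to 4% and with 10 to 20% mitochondrial UMIs, the Sham difference turned to -0.10 in both for Tnnt2 and to -0.04 and -0.07 for Tnni1. That of Tnni3 stood at -0.03 in nuclei with 10 to 20% and above 0 in the other 4 ranges, up to 0.68. CM4 made up 176 of 299 nuclei with 10 to 20% in Sham-WT and 253 of 1241 in Sham-KO. Over the 5 ranges within CM1, the Sham difference lay between -0.02 and 0.26 for Tnnt2 and between 0.015 and 0.33 for Tnni1. For Tnni3 it lay between 0.49 and 0.72 there. The difference after MI was above 0 in 5 of 5 ranges for each gene. Each library enters a pair of these comparisons, so they are not independent of each other.

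**Figure D2:**
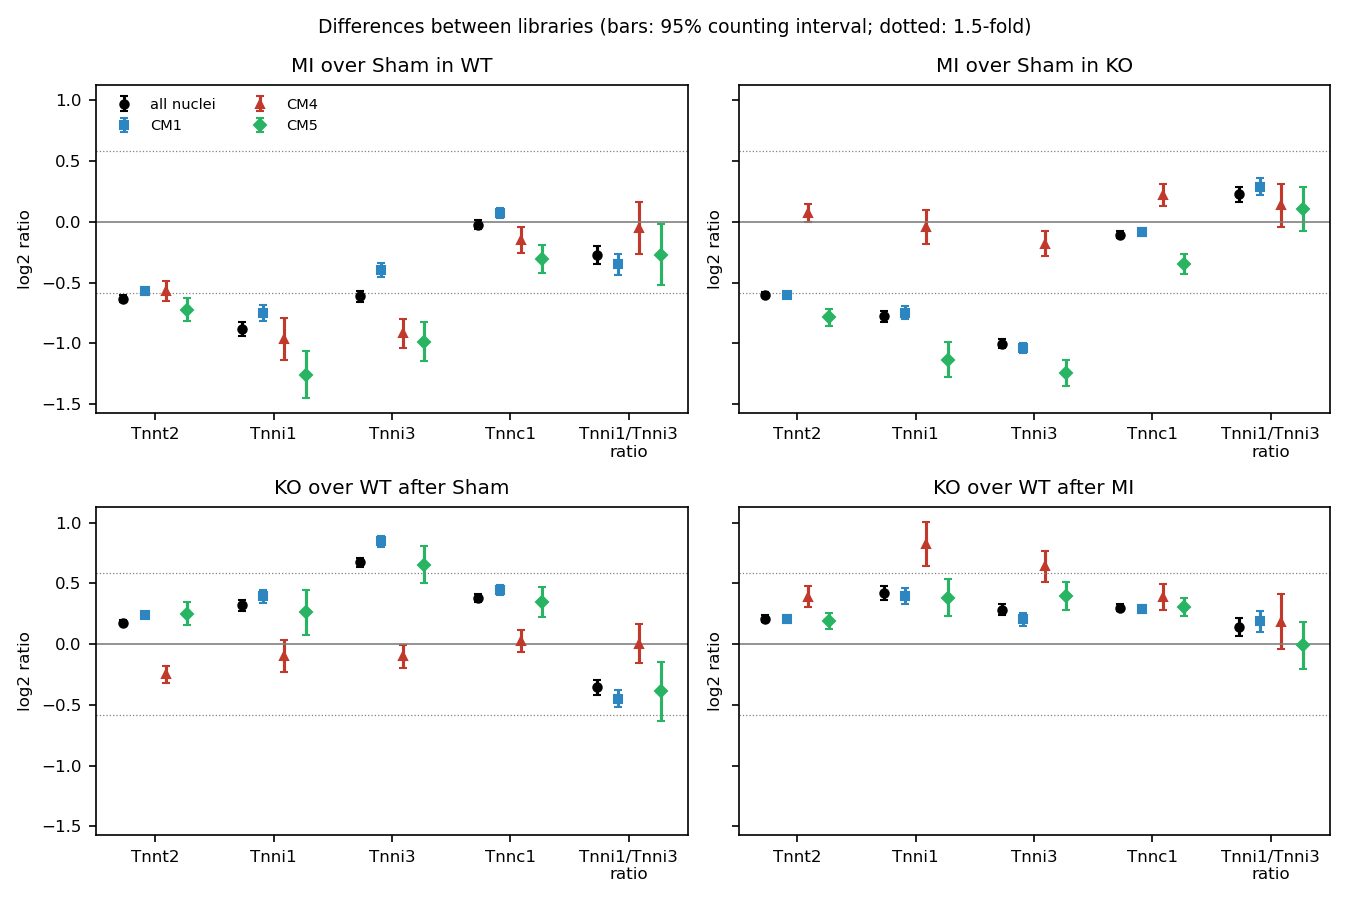
Log2 ratio between libraries (vertical axes) for each troponin gene and for the Tnni1 to Tnni3 ratio in the 4 comparisons; symbols are all nuclei, CM1, CM4 and CM5, bars are 95% counting intervals and dotted lines mark 1.5-fold. In CM4 (triangles) the 4 genes lie between -0.18 and 0.22 for MI over Sham in KO, while Tnni1 and Tnni3 lie at -0.96 and -0.92 in WT.

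The balance of both troponin I genes was next taken from the UMIs of each library, a ratio that needs no scaling between libraries. In Sham-WT 5297 UMIs of Tnni1 and 7094 of Tnni3 gave a ratio of 0.747 (0.720 to 0.774). In MI-WT 4584 and 7409 UMIs gave 0.619 (0.596 to 0.642). In Sham-KO 12068 and 20669 UMIs gave 0.584 (0.571 to 0.597), and in MI-KO 5689 and 8333 UMIs gave 0.683 (0.660 to 0.706). Tnni1 thus supplied fewer UMIs than Tnni3 in every library, between 36.9% and 42.7% of both. The intervals of MI-WT and Sham-KO, the libraries of lowest ratio, met at their ends, and no others overlapped. Introns were counted and the genes differ in length, 31.556 kb for Tnni1 and 5.925 kb for Tnni3, so per kb of gene body the ratio was 0.140, 0.116, 0.110 and 0.128 in the order Sham-WT, MI-WT, Sham-KO and MI-KO. Per kb of annotated exons it was 0.428, 0.355, 0.335 and 0.391, and the differences between libraries are the same on all 3 scales. These lengths are of the GENCODE genes, and from the RefSeq starts used for the promoters both gene bodies would be shorter. The values per kb are therefore not read as amounts of Tnni1 RNA against Tnni3 RNA.

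The ratio was lower after MI for the WT labels and higher after MI for the KO labels. Its log2 difference was -0.27 (-0.35 to -0.20) in WT and 0.23 (0.17 to 0.28) in KO, a gap of 0.50 (0.40 to 0.59, from counting error). Equally, the ratio was lower in the library labelled KO after Sham surgery, by -0.35 (-0.42 to -0.29), and higher in that labelled KO after MI, at 0.14 (0.07 to 0.21). These are the same 4 libraries read along the other axis and not a further finding. In CPM, Tnni1 was lower after MI by -0.88 in WT and -0.78 in KO, a gap of 0.11 (0.03 to 0.18), whereas Tnni3 was lower by -0.61 in WT and by -1.003 in KO, a gap of -0.39 (-0.45 to -0.33), and its level in Sham-KO was the highest of any library. None of these differences in the ratio reached 1.5-fold.

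**Figure D3:**
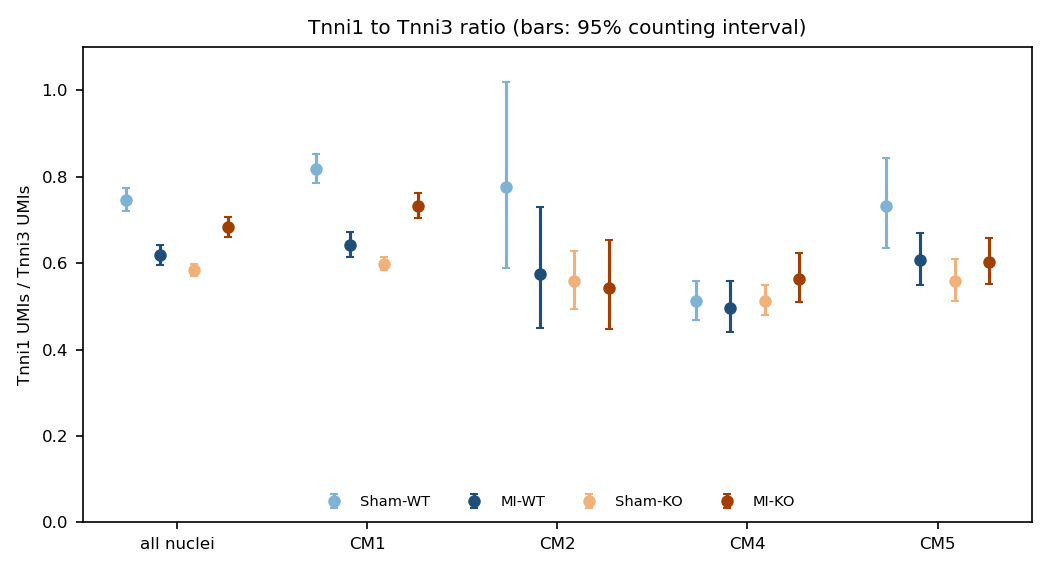
Ratio of Tnni1 UMIs to Tnni3 UMIs (vertical axis, from 0) in the 4 libraries, over all nuclei and by population; points are libraries and bars 95% counting intervals. Over all nuclei and in CM1 the ratio is highest in Sham-WT (0.747 and 0.818) and lowest in Sham-KO (0.584 and 0.599), while in CM4 the 4 libraries lie between 0.496 and 0.564 with overlapping intervals.

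The direction of the ratio was the same within ranges of the mitochondrial percent, although its size was not. In WT it was lower after MI in each of the 5 ranges, between -0.46 and -0.11, with 4 of 5 intervals below 0. In KO it was higher after MI in each range, between 0.09 and 0.22, with 2 of 5 intervals above 0. Between genotype labels it was lower after Sham surgery in KO in all 5, with 4 intervals below 0 and a value of -0.04 in nuclei with 10 to 20%. In CM1 alone this difference lay between -0.48 and -0.32, with 5 of 5 intervals below 0. Within each library the ratio itself was lower in nuclei with a high mitochondrial percent, as in Sham-WT, where it was 0.885 in nuclei with 0 to 4% and 0.577 in nuclei with 10 to 20%. Of the Sham-WT nuclei with 10 to 20%, 176 of 299 were CM4, and in CM1 alone the ratio went from 0.900 to 0.709. Sham-KO had the highest mitochondrial percent and the lowest ratio of the libraries, and the part of this percent in the ratio was not tested beyond these ranges.

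**Figure D4:**
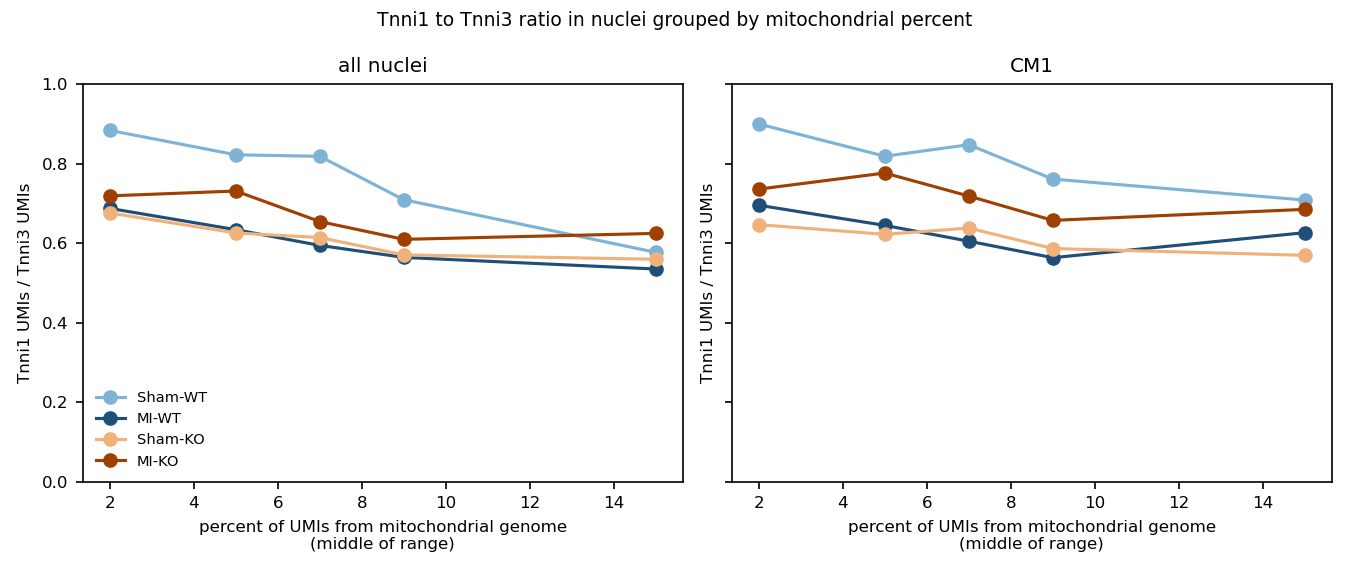
Ratio of Tnni1 UMIs to Tnni3 UMIs (vertical axis, from 0) in nuclei grouped by percent of UMIs from the mitochondrial genome (horizontal axis, middle of each of 5 ranges), over all nuclei (left) and in CM1 (right); lines join the ranges of a library. Sham-WT goes from 0.885 to 0.577 over all nuclei and from 0.900 to 0.709 in CM1, and lies above Sham-KO in each range on both sides.

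In single nuclei both troponin I genes were found together. Without thinning, between 82.1% (MI-WT) and 95.9% (Sham-KO) of nuclei held UMIs of both genes. To compare libraries of unlike depth nuclei were thinned to 1000 UMIs each, without 6 nuclei of Sham-WT and 1 of MI-WT that held fewer. After thinning a Tnni1 UMI was found in 65.4% of nuclei in Sham-WT, 44.2% in MI-WT, 73.8% in Sham-KO and 52.7% in MI-KO. For Tnni3 the shares were 73.9%, 61.2%, 88.3% and 66.9%, and for Tnnt2 they were between 94.0% and 99.1%. The shares of Tnni1 and Tnni3 were thus lower after MI for both genotype labels, as their CPM were. Only cardiomyocyte nuclei were in the matrix, so the share in a cell type that lacks these genes could not be given, and the 5 red blood cell markers, which cardiomyocytes should lack, summed to 2123 to 4519 CPM.

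The share of Tnni1 among the UMIs of both genes varied among nuclei little more than counting alone would give. In nuclei with 5 or more UMIs of both genes the median share was 42.9% in Sham-WT, 37.5% in MI-WT, 36.4% in Sham-KO and 40% in MI-KO. Its SD over nuclei was 17.6, 19.7, 16.4 and 18.8 percentage points in that order, where binomial counting around a single share in each library would give 17.0, 18.5, 16.1 and 17.8. Nuclei with Tnni3 alone made up 1.37% to 4.81% of them and nuclei with Tnni1 alone 0.160% to 0.420%. At this depth no separate group of nuclei with Tnni1 alone could be seen.

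The populations named CM1, CM2, CM4 and CM5 were set by the authors from clustering and label transfer on these same nuclei, so differences between them describe the labels and are no test. CM1 held 70.6% to 78.7% of the nuclei of a library and CM4, which the study regards as the regenerative population, 6.39% to 13.7%. All 4 genes were higher in CM4 than in CM1 in 4 of 4 libraries. The log2 ratio of Tnni3 was 1.66 (1.57 to 1.74) in Sham-WT, 1.14 (1.03 to 1.24) in MI-WT, 0.71 (0.65 to 0.77) in Sham-KO and 1.57 (1.48 to 1.67) in MI-KO. That of Tnni1 was 0.98, 0.76, 0.49 and 1.19, that of Tnnc1 was 0.95, 0.73, 0.52 and 0.83, and that of Tnnt2 was 0.71, 0.71, 0.21 and 0.89. Tnni3 thus had the largest ratio of the 4 genes in each library, and Sham-KO the smallest of the libraries for each gene. Past 1.5-fold and higher were 4 of 4 genes in Sham-WT, MI-WT and MI-KO and 1 of 4 in Sham-KO, where 23.6%, 26.6%, 26.4% and 16.6% of all genes were, against 68.2%, 54.4%, 63.2% and 36.9% in either direction.

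The Tnni1 to Tnni3 ratio was lower in CM4 than in CM1 in all 4 libraries. It was 0.512 against 0.818 in Sham-WT, 0.496 against 0.642 in MI-WT, 0.513 against 0.599 in Sham-KO and 0.564 against 0.733 in MI-KO. The ratios of CM2 and CM5 were also below that of CM1 in each library, with intervals below 0 in MI-KO only. In MI-KO the log2 difference from CM1 was -0.44 (-0.72 to -0.16) for CM2 and -0.28 (-0.42 to -0.14) for CM5. For CM4 it was -0.38 (-0.53 to -0.22) there. In CM4 the Tnni1 to Tnni3 ratio of the 4 libraries differed by no more than counting error, and each of the 4 comparisons had an interval that included 0. The values were -0.05 (-0.26 to 0.17) for MI over Sham in WT and 0.14 (-0.04 to 0.31) in KO. For KO over WT they were 0.003 (-0.16 to 0.16) after Sham surgery and 0.19 (-0.04 to 0.41) after MI. These intervals were wide, since CM4 sums held 420 to 1328 UMIs of Tnni1, against 3405 to 9506 in CM1. In CM1 the same comparisons gave -0.35 (-0.43 to -0.26) for MI over Sham in WT, 0.29 (0.22 to 0.36) for MI over Sham in KO, -0.45 (-0.52 to -0.38) for KO over WT after Sham surgery and 0.19 (0.10 to 0.28) after MI. CM1 nuclei whose transferred label was also CM1 gave -0.32, 0.31, -0.45 and 0.18. In CM5 the ratio stood at -0.27 (-0.52 to -0.02) for MI over Sham in WT and 0.11 (-0.07 to 0.29) in KO, a gap of 0.38 (0.07 to 0.69), whereas in CM2, with its few nuclei, 3 of the 4 intervals included 0.

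CM4 nuclei differed from CM1 in other ways that move with the troponins. The median mitochondrial percent was 9.47 to 14.6 in CM4, against 5.05 to 8.78 in CM1, and the median depth was 1715.5 to 2394 UMIs, against 2632 to 4043.5. Summed over the 7 endothelial markers they had 1538 to 1626 CPM (450 to 814 in CM1), over the 7 fibroblast markers 1765 to 2182 (807 to 946), and over the 5 red blood cell markers 3538 to 12805 (1891 to 3829). All of these markers were detected in each library. Malat1 was lower in CM4, at log2 ratios of -2.03 to -0.75. In nuclei of both populations with 8 to 12% of UMIs from the mitochondrial genome, the ratio of CM4 over CM1 for Tnni3 was 1.44, 0.999, 0.59 and 1.099 in the order Sham-WT, MI-WT, Sham-KO and MI-KO. With 2000 to 3000 UMIs per nucleus it was 1.28, 0.68, 0.42 and 0.88, and in nuclei without a UMI of any endothelial marker it was 1.49, 1.51, 0.72 and 1.05. Under these selections the interval of 2 other values included 0, those of Tnnc1 in MI-WT with 2000 to 3000 UMIs, at 0.05 (-0.12 to 0.22), and of Tnnt2 in Sham-KO without endothelial UMIs, at 0.11 (-0.02 to 0.25). The lower Tnni1 to Tnni3 ratio of CM4 had an interval below 0 in Sham-WT under all of these selections, but it included 0 in MI-KO under all 3 of them and in MI-WT and Sham-KO under 2 of 3 each. In MI-WT it was -0.18 and -0.06 in nuclei of like mitochondrial percent and like depth, and in Sham-KO it was -0.13 at like depth and -0.24 without endothelial UMIs.

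In CM1, which holds most nuclei, the levels followed those over all nuclei. For MI over Sham in WT the log2 ratio was -0.75 for Tnni1, -0.57 for Tnnt2, -0.40 (-0.45 to -0.34) for Tnni3 and 0.07 (0.03 to 0.11) for Tnnc1, with 1 of 4 genes lower by more than 1.5-fold, beside 11.9% of all genes. In KO it was -1.04 (-1.08 to -0.995) for Tnni3, -0.75 for Tnni1, -0.60 for Tnnt2 and -0.08 (-0.12 to -0.05) for Tnnc1, with 3 of 4 past 1.5-fold, beside 10.9%. Tnni1 thus had nearly the same difference in both genotype labels, with a gap of -0.0018 (-0.09 to 0.08), while the gap of Tnni3 was -0.64 (-0.71 to -0.57). Between genotype labels Tnni3 was the 1 gene of 4 past 1.5-fold after Sham surgery, at 0.85 (0.80 to 0.89), beside 6.21% of genes higher, and it was above 0 in 5 of 5 ranges of the mitochondrial percent, between 0.49 and 0.72. After MI 0 of 4 passed, beside 4.14% of genes in either direction, and the 4 genes lay between 0.20 for Tnni3 and 0.39 for Tnni1.

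Within CM4 the surgeries differed for the WT labels and much less for the KO labels. For WT, MI over Sham stood at -0.96 (-1.14 to -0.79) for Tnni1, -0.92 (-1.04 to -0.80) for Tnni3, -0.57 (-0.65 to -0.48) for Tnnt2 and -0.15 (-0.25 to -0.04) for Tnnc1. Past 1.5-fold and lower were 2 of 4, beside 16.1% of 2620 genes (41.2% in either direction). For KO the values were -0.04 (-0.18 to 0.10), -0.18 (-0.28 to -0.08), 0.08 (-0.00 to 0.15) and 0.22 (0.13 to 0.31) in the same order, with 0 of 4 past 1.5-fold, beside 32.0% of 3378 genes in either direction. The gap between KO and WT, with intervals from counting error, was 0.92 (0.70 to 1.15) for Tnni1, 0.74 (0.58 to 0.90) for Tnni3, 0.64 (0.53 to 0.75) for Tnnt2 and 0.37 (0.23 to 0.51) for Tnnc1. Between genotype labels after MI, CM4 of MI-KO was higher for Tnni1, at 0.83 (0.64 to 1.01), and for Tnni3, at 0.64 (0.51 to 0.77), so that 2 of 4 were past 1.5-fold, beside 9.67% of 2512 genes higher and 23.5% in either direction. After Sham surgery the 4 genes lay between -0.25 (-0.32 to -0.18) for Tnnt2 and 0.02 (-0.07 to 0.11) for Tnnc1, with 0 of 4 past 1.5-fold, where 23.0% of genes were. Scaling by TMM or by DESeq2 moved all CM4 values of MI over Sham in WT by -0.12 or -0.14, which took Tnnt2 to -0.69 or -0.70 and made 3 of 4 genes past 1.5-fold, and the other CM4 comparisons by between -0.07 and 0.06. The red blood cell markers of CM4 moved as well, from 12805 CPM in Sham-WT to 8411 in MI-WT and from 7833 in Sham-KO to 3538 in MI-KO. The median mitochondrial percent of CM4 was 14.6 in Sham-WT, 10.8 in MI-WT, 11.6 in Sham-KO and 9.47 in MI-KO. Ranges of this percent were compared where each library had 20 or more CM4 nuclei. For MI over Sham in WT this left 1 range, with Tnni1 at -0.95 and Tnni3 at -0.70. In KO it left 3, with Tnni1 between -0.04 and 0.29 and Tnni3 between -0.31 and -0.13. Malat1 moved the opposite way to Tnni1 and Tnni3 for WT and for KO over WT after MI, with log2 ratios in CM4 of 1.29 for MI over Sham in WT, -0.47 in KO, 1.15 for KO over WT after Sham surgery and -0.61 after MI. The 8 atrial genes in CM4 summed to 9797 CPM in MI-KO, 531 in Sham-WT, 5321 in MI-WT and 534 in Sham-KO. Bmp10 was at 0 in all 4 sums and Sln at 0 in Sham-WT. Most of each sum was Nppa, which is also on the list of injured cardiomyocyte markers. It stood at 8540 CPM in MI-KO, 453 in Sham-WT, 5186 in MI-WT and 449 in Sham-KO. Myl7, the atrial regulatory light chain, stood at 608 CPM in CM4 of MI-KO and at 10.1 to 23.7 CPM in CM4 of the other libraries, and Myl4, the atrial essential light chain, at 547 against 28.7 to 61.7 CPM. The part of these RNAs in the troponin values was not tested. CM4 sums also rested on fewer nuclei. For Tnni3 the 10 nuclei with most UMIs held 18.8% in Sham-WT, 21.0% in MI-WT, 9.74% in Sham-KO and 29.1% in MI-KO.

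In CM5, which the study describes as responding to injury, and in CM2, which carries cell cycle genes, troponin levels were closer to those of CM1. These are the deposited population names, and the numbers are exchanged in the deposited label transfer, where most nuclei named CM5 (743) were CM2 and most named CM2 (197) were CM5. After MI, CM5 was lower than CM1 for each gene, between -0.11 (-0.17 to -0.06) for Tnnc1 and -0.43 (-0.54 to -0.32) for Tnni1 in MI-KO, and between -0.13 (-0.19 to -0.07) and -0.42 (-0.54 to -0.29) for the same genes in MI-WT. In the Sham libraries CM5 was higher for Tnnc1, at 0.25 in Sham-WT and 0.15 in Sham-KO, and slightly lower for Tnnt2, at -0.11 and -0.10. Within CM5, MI over Sham stood at -1.26 (-1.45 to -1.06) for Tnni1 in WT and -1.13 (-1.28 to -0.99) in KO, and at -0.98 (-1.14 to -0.82) and -1.24 (-1.35 to -1.13) for Tnni3. CM2 was lower than CM1 for Tnnt2 in all 4 libraries, between -0.50 and -0.36, and held only 27 to 124 nuclei of a library.

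Other troponin genes were close to absent. Tnnt1, the slow skeletal troponin T, stood at 20.9 CPM in Sham-WT, 16.8 in MI-WT, 24.0 in Sham-KO and 23.8 in MI-KO. Of the fast skeletal genes, Tnni2 had 7 to 31 UMIs in a library, Tnnt3 had 1 to 11, and Tnnc2 had 0 UMIs in every library, where a limit of 3 UMIs for a count of 0 equals 0.602 CPM in Sham-WT and less in the others. Tnnt1 passed 1.5-fold in none of the 4 comparisons over all nuclei, and its largest was KO over WT after MI, at 0.50 (0.16 to 0.83).

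Other genes listed with the thin filament did not, as a group, follow the lower level of Tnnt2, Tnni1 and Tnni3 after MI over all nuclei. The list also held Mybpc3, a gene of the thick filament, and Xirp1, so it was not of the thin filament alone. Of its 14 genes, 13 had 50 or more UMIs. After MI in WT 3 of these were higher by 1.5-fold and 1 was lower, with a median log2 ratio of 0.16, beside -0.06 and 10.2% higher for all genes. In KO 4 were higher and 1 lower, with a median of 0.09, beside 0.04 and 11.7% higher. Among tropomyosins, which carry troponin, Tpm2 stood at 1.95 in WT and 1.49 in KO, Tpm4 at 0.68 and 0.71, and Tpm1, the main cardiac gene, at 0.18 and 0.03. The skeletal actin Acta1 stood at 3.14 and 2.55, and the cardiac actin Actc1 at 0.14 and -0.26. Neb, for nebulin, which sets thin filament length in skeletal muscle, was lower at -1.39 and -0.98. In CM4 of KO, where troponin did not differ past 1.5-fold, 8 of 12 listed genes with enough UMIs were higher after MI. Their median was 0.82, beside 15.1% of all genes higher and a median of 0.00. In CM4 of WT 3 of 11 were higher and 1 lower, with a median of 0.07 beside 25.1% and 0.13.

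Other pairs of immature and mature genes were measured in the same way, as the ratio of the first to the second. After MI the ratio was higher for both genotype labels in 7 of 9 pairs. Of their genes, Myh7 and Acta1 are also on the list of injured cardiomyocyte markers. Both actin pairs share Actc1, so the pairs are not independent of each other. For Myh7 over Myh6, the slow and fast myosin heavy chains, the log2 difference was 0.82 (0.74 to 0.90) in WT and 1.62 (1.55 to 1.68) in KO. For Acta1 over Actc1 it was 2.998 (2.59 to 3.43) and 2.81 (2.59 to 3.04), and for Slc2a1 over Slc2a4, the fetal and insulin-responsive glucose transporters, 2.58 (2.04 to 3.13) and 2.21 (1.75 to 2.68). Myl7 over Myl2 stood at 1.09 and 2.90, Myl4 over Myl3 at 1.03 and 2.38, Acta2 over Actc1 at 0.39 and 0.48, and Ckb over Ckm at 0.83 and 1.08. Hk1 over Hk2, the hexokinases, was lower in both, at -0.60 (-0.84 to -0.37) and -0.79 (-0.996 to -0.58). Some of these values rested on 1 population. In CM1 alone Hk1 over Hk2 stood at -0.05 (-0.32 to 0.22) in WT and -0.40 (-0.65 to -0.16) in KO, against -2.17 and -1.70 in CM5. Slc2a1 over Slc2a4 stood at 1.29 and 1.05 in CM1, against 6.06 and 4.15 in CM5. Of the Myl7 UMIs in MI-KO 209 of 344 came from the 118 CM4 nuclei, and in CM1 Myl7 over Myl2 in KO was 1.60 and Myl4 over Myl3 was 1.63. Over all nuclei the Tnni1 to Tnni3 ratio was the 1 pair of 9 whose difference had opposite signs in WT and KO. Between genotype labels Myh7 over Myh6 had the same signs as it, at -0.45 (-0.54 to -0.37) after Sham surgery and 0.34 (0.29 to 0.40) after MI. So had Myl4 over Myl3, at -0.20 (-0.56 to 0.18) and 1.15 (0.89 to 1.41). Ckb over Ckm did too, at -0.19 (-0.40 to 0.02) and 0.05 (-0.15 to 0.26), with both intervals including 0.

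**Figure D5:**
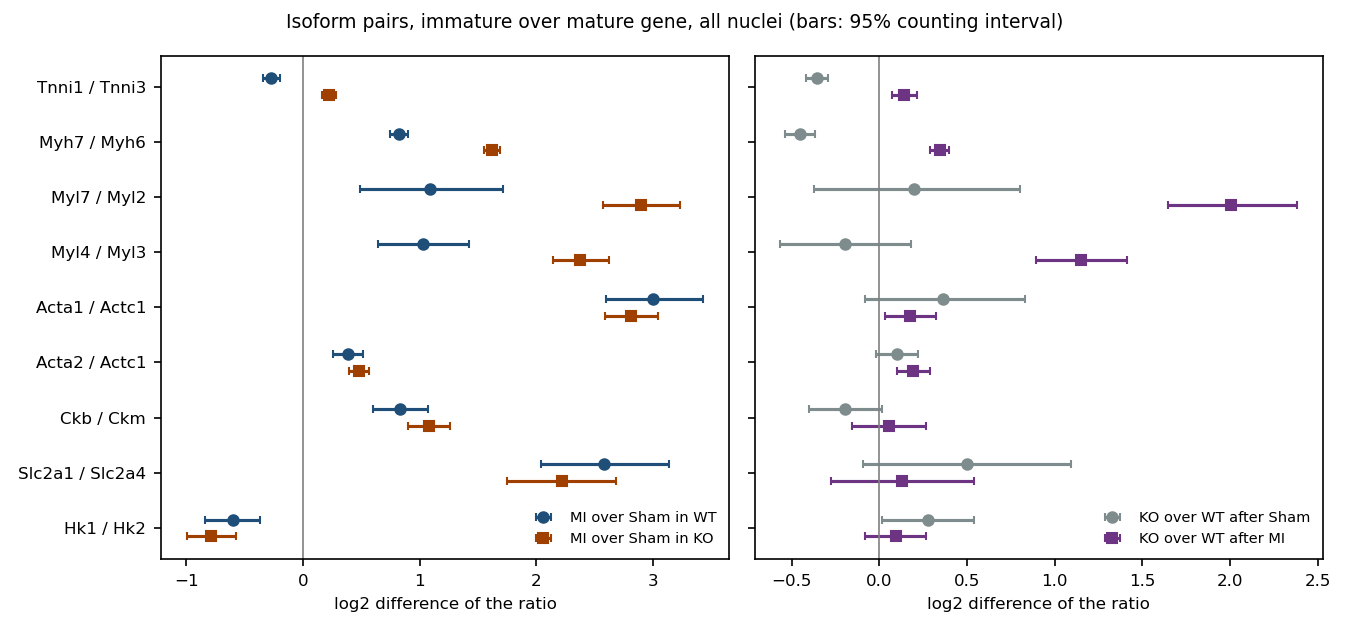
Log2 difference of the ratio of an immature to a mature gene (horizontal axes) for 9 pairs over all nuclei, MI over Sham on the left and KO over WT on the right; points are the comparisons named in each key and bars 95% counting intervals. After MI 7 pairs lie to the right of 0 in both genotype labels, Hk1 / Hk2 lies to the left in both, and Tnni1 / Tnni3 lies at -0.27 in WT and 0.23 in KO.

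Genes whose level followed the troponin I genes were sought over 12 sums (CM1, CM4 and CM5 in the 4 libraries), among 4594 genes with 1000 or more UMIs, as Pearson's r of log2(CPM + 1). These sums share libraries, depth and the mitochondrial percent, so r describes them and carries no test. For Tnni3 the 5 highest were Myl2 (0.999), the ventricular regulatory myosin light chain, Cox6a2, Uqcrh and Cox5a, subunits of the respiratory chain, and Mgst3, each of the last 4 at 0.997. For Tnni1 they were Hint2 (0.992), Eno3 (0.988), the muscle enolase, Tnnt2 (0.985), Cox7a2l (0.984) and Ckm (0.984), the muscle creatine kinase. Tnni1 and Tnni3 had an r of 0.967 with each other, and Tnnc1 had 0.833 with Tnni1 and 0.911 with Tnni3. The 5 lowest were Fndc3b, Mast2, Slc39a14, Tln2 and Gphn for Tnni3, from -0.974 to -0.963, and Fndc3b, Slc39a14, Mboat2, Mir99ahg and Tns1 for Tnni1, from -0.989 to -0.965. With CM2 added, for 16 sums, 3 of the 5 highest for Tnni1 and 0 of the 5 for Tnni3 stayed in place, so these names depend on the sums taken.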

How the data were processed

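Nuclei were profiled in 4 libraries, 1 for each genotype label and surgery, made with a 10x Genomics 3′ kit whose version differs between the labels and the methods. The authors aligned reads with Cell Ranger (version not given in the sources used here) to a pre-mRNA reference of mm10 (GRCm38), which counts introns. They removed doublets called by Scrublet and nuclei outside 200 to 2500 detected genes, clustered nuclei with Seurat 3 after integrating the libraries, kept cardiomyocyte clusters and transferred population labels from an earlier reference. They deposited raw UMI counts per gene and nucleus, with no normalization, and for each nucleus its library, its population labels and the percent of UMIs that came from the mitochondrial genome (13 genes). The other 10 deposited value columns stayed unused.

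Libraries summed to 4984625 to 9106522 UMIs, which set the counting error. UMIs were summed by library and population with Python 3.11.15 (numpy 2.4.6, scipy 1.17.1, pandas 2.3.3) and given as CPM. Intervals at 95% were exact: Poisson for CPM, Clopper-Pearson for shares, the conditional binomial for log2 ratios and the conditional odds ratio for a difference of the Tnni1 to Tnni3 ratio. For a gap between differences the interval is approximate, from both of their intervals. All cover counting error only. With 1 library per group there was no test, and past 1.5-fold is a size, counted beside all genes whose sums together reached 50 UMIs. The members, the gene lists and the rule for named genes (the members, listed genes with 50 or more UMIs, all genes of the pairs, the 5 genes most and least like Tnni1 or Tnni3, and the targeted gene) were chosen with earlier results of these data known. edgeR 4.0.16 and DESeq2 1.42.0 under R 4.3.3 gave other scaling factors only, and other alternatives changed the nuclei, the depth or the label used. Under the transferred label, CM1 held the labels CM1 and CM3. The intervals of log2 ratios and of differences of the Tnni1 to Tnni3 ratio were tried on simulated Poisson counts. Those counts carried counting error only, with no spread between nuclei, hearts or libraries, and no other step was tried. Gene positions are from GENCODE M21, which held 22122 of 22574 symbols (98.0%), and promoters from RefSeq for 4 of 4 genes.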

Additional observations from a re-analysis of the deposited data

Results flagged for a closer look

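In some cases the difference under 1 contrast had opposite signs in the compared groups, with both counting intervals away from 0. With 1 library per group none of these differences was tested between groups, and each rests on single libraries.

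The Tnni1 to Tnni3 ratio was higher after MI in KO and lower after MI in WT over all nuclei, with log2 differences of 0.23 and -0.27, and in CM1, with 0.29 and -0.35. Read along the other axis, the KO over WT difference was above 0 after MI and below 0 after Sham surgery, with 0.14 and -0.35 over all nuclei and 0.19 and -0.45 in CM1. Sham-KO, which enters 1 side of each, was also the library of lowest depth (2572 UMIs in the median nucleus) and highest mitochondrial percent (8.98). Within 5 ranges of that percent the WT and KO values kept opposite signs in each range, at -0.36 and 0.09 in nuclei with 0 to 4% and -0.11 and 0.16 in nuclei with 10 to 20%.

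Tnnc1 was lower after MI in KO and higher in WT in CM1, at -0.084 and 0.072, and higher in KO and lower in WT in CM4, at 0.22 and -0.15, all well inside 1.5-fold. In CM4, KO over WT stood at 0.39 after MI and -0.25 after Sham surgery for Tnnt2, and at 0.64 and -0.10 for Tnni3.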

How the results depend on the processing

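No paired analysis was possible because each group was 1 library. For the same reason no library could be left out of a group and no test over replicates was run, so a library that stands apart, such as Sham-KO, cannot be told apart from its group. Of 882 values under another setting, 458 stayed within counting error (counts of genes within 1.5 times), 402 moved and 22 reversed. A value counts as reversed if it had the opposite sign to a main value whose interval excluded 0. No interval was taken for the value under the other setting. Of 108 differences of the Tnni1 to Tnni3 ratio 74 stayed and 34 moved. The 36 over all nuclei and the 44 in CM1 kept their sign, and in CM4, where every interval included 0, 9 of 28 took the other sign, with values from -0.54 to 0.092. The cause was not tested where a value moved. The ranges of the mitochondrial percent, the CM4 and CM1 nuclei of like percent, depth or endothelial markers, and the CM1 nuclei with both labels were chosen after seeing the data.

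The ratio difference over all nuclei for MI over Sham in WT was -0.18 with nuclei thinned to 1000 UMIs, -0.37 under 8% mitochondrial, -0.36 with 2000 to 5000 UMIs, and -0.36, -0.38, -0.46 and -0.11 in the ranges of 0 to 4%, 4 to 6%, 6 to 8% and 10 to 20%. In KO it was 0.089, 0.091, 0.095 and 0.16 at 0 to 4%, 6 to 8%, 8 to 10% and 10 to 20%. For KO over WT it was -0.26 (thinned), -0.43 (under 8%) and -0.044 (10 to 20%) after Sham surgery, and 0.22 (2000 to 5000 UMIs), 0.065 (0 to 4%) and 0.22 (10 to 20%) after MI.

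The number of troponin genes past 1.5-fold for MI over Sham in WT was 1 in place of 3 under TMM, DESeq2 size factors, 4 to 6% and 6 to 8%. In KO it was 0 at 0 to 4% and 10 to 20% and 1 at 4 to 6% and 8 to 10%. For KO over WT it was 0 in place of 1 after Sham surgery (thinned, 0 to 4%, 8 to 10% and 10 to 20%) and 1 in place of 0 after MI (8 to 10% and 10 to 20%). The percent of all genes past the fold, in the order MI over Sham in WT and in KO, then KO over WT after Sham surgery and after MI, was 37.7, 34.7, 23.5 and 19.5 with a minimum of 1 UMI, and 8.21, 7.53, 0.784 and 0.692 at 2-fold. With 500 UMIs it was 3.89 and 0.484 for KO over WT after Sham surgery and after MI.

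Reversals were mostly of Tnnc1, whose differences were small. For MI over Sham in KO it was 0.011 (under 8%), 0.028 (2000 to 5000 UMIs) and 0.36, 0.10, 0.095, 0.051 and 0.060 in the 5 ranges over all nuclei, and 0.00031, 0.052, 0.35, 0.12, 0.064 and 0.052 in CM1 (the last range kept its sign). In WT it was -0.0086 (8 to 10%) and -0.083 (10 to 20%) in CM1 and 0.047 (thinned) in CM4. KO over WT after Sham surgery over all nuclei was -0.10 (0 to 4%) and -0.097 (10 to 20%) for Tnnt2, -0.043 and -0.072 for Tnni1 and -0.028 (10 to 20%) for Tnni3, and in CM1 it was -0.020 (0 to 4%) for Tnnt2.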
